A study of Arabidopsis thaliana with 156 samples.

Results

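BCAT4, AOP3 and AT2G31790 are genes of glucosinolate synthesis in Arabidopsis thaliana, and their expression was followed over shoot apices, leaf primordia and leaves. They were the 3 genes given for description, each measured by the probe set annotated to it, out of 10781 named genes and 19324 probe sets on the array. BCAT4 (AT3G19710, probe set 257021_at) lies on chromosome 3, AOP3 (AT4G03050, 255471_at) on chromosome 4 and AT2G31790 (263477_at) on chromosome 2. All plants were of the Col-0 background and carried a functional FRI gene introgressed from Sf-2. FRI is an activator of FLC, whose product represses flowering. The mimic line, FRI;FLC;35S::miR156mimic, expressed an RNA that sequesters miR156 from the 35S promoter, which is active in most plant tissues, and it gave 3 arrays of apices at day 6. The number of transgenic lines behind those arrays is not given in the sources used here. FRI;flc-3 plants, also called the mutants here, carried the mutant allele flc-3 and gave 73 arrays. The 80 arrays of FRI;FLC plants came from plants with functional FLC.

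Apices with primordia below 1 mm came from FRI;flc-3 plants at days 4, 6, 9 and 11 and from FRI;FLC plants at days 4, 6, 9, 11, 14 and 21. Primordia of 1 mm and fully expanded leaves came from leaves 1/2 (the first pair) and leaves 3, 5, 7, 9 and 11 of both genotypes. Primordia were taken from day 6 (leaves 1/2) to day 18 (leaf 11). Expanded leaves were taken from day 14 (leaves 1/2) to days 30 to 34 (leaf 11). Position and plant age can therefore not be told apart. Leaves 3, 5 and 7 were also taken past full expansion, at day 32 in FRI;flc-3 and day 33 in FRI;FLC. At position 11 the mutant bore a cauline leaf and FRI;FLC a rosette leaf, so that leaf type and genotype cannot be told apart there, nor, in expanded leaves, harvest day. Primordia belonged to experiment 1, apices and leaves past full expansion to experiment 2, and expanded leaves to both. Plants grew in 16 h days, and every replicate was a pool of organs in which RNA from 3 collection times of a day was combined.

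Glucosinolates are sulfur- and nitrogen-containing defence compounds of the Brassicales that release toxic products when tissue is damaged and beta-glucosidases called myrosinases reach them. Aliphatic glucosinolates are built from methionine in 3 stages: the side chain is elongated, the core structure with its thioglucose and sulfate is formed, and the side chain is then modified. BCAT4 encodes the methionine aminotransferase that opens the chain elongation stage. AT2G31790 is counted among the genes of the core structure, and AOP3 encodes a 2-oxoglutarate-dependent dioxygenase that can convert side chains to the hydroxyalkyl form. AOP3 is known to be little expressed in leaves of Col-0. It neighbours its paralogs AOP2 and AOP1 on chromosome 4, and how far its probe set also detects AOP2, for which no probe set was named, was not tested.

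All values are deposited log2 signals, on which a difference of 1 is a doubling. Array medians lay between 6.40 and 6.92, arrays of a group correlated at a median of 0.992 and 0 pairs of arrays were identical. The 2 FRI;FLC apex arrays of day 6 correlated at 0.954. Of 53 groups, 51 had 3 arrays, 1 had 2 (FRI;FLC apices at day 6) and 1 had 1 (FRI;flc-3 apices at day 6). The p values measure the spread among pools within an experiment. The meristem gene CLV3 ranged from 1.93 to 5.97 in apices and from 1.09 to 1.74 in primordia. HTR12, the histone variant of centromeres and here the marker of dividing cells, ranged from 8.95 to 10.34 in primordia and from 2.60 to 6.14 in expanded leaves.

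BCAT4 had the widest range of the 3 genes, and its levels fell into distinct blocks. In leaves past full expansion it lay between 12.74 and 13.11 (median 12.87, 18 arrays). Fully expanded leaves gave 12.36 to 13.09 (median 12.82, 72 arrays), and apices other than those of the mimic gave 11.39 to 13.27 (median 12.70, 27 arrays). The primordia gave 2.27 to 5.41 (median 3.36, 36 arrays), and the 3 mimic apices stood between these blocks. Apices hold primordia shorter than those sampled singly, and their BCAT4 signal overlapped that of expanded leaves. It lay below every expanded leaf at day 4 and above every one at day 21. Apices and primordia came from different experiments and were not tested against each other. Only 2.14% of all array values exceeded 12.0, so BCAT4 in leaves and apices stood near the upper end of the scale. Whether differences are compressed there was not tested.

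AT2G31790 varied less, and it too was lowest in primordia. It ranged from 8.65 to 10.64 past full expansion (median 10.16), from 9.17 to 10.79 in expanded leaves (median 10.11) and from 8.01 to 11.33 in apices outside the mimic (median 10.44). Primordia gave 7.40 to 8.91 (median 8.30), which overlapped the youngest apices but no expanded leaf.

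AOP3 was near the floor of the array everywhere. All 156 values lay between 2.15 and 3.68, while 12.2% of all array values were below its lowest and 27.2% below its highest. Its medians were 2.69 past full expansion, 2.61 in expanded leaves, 2.57 in apices outside the mimic and 2.46 in primordia, and these ranges overlapped throughout. Differences of AOP3 are therefore differences between low signals.

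In the order of the 53 group means, BCAT4 ran upwards from 2.63 ± 0.31 (SD, n = 3) in FRI;flc-3 primordia of leaf 9 to 13.18 ± 0.08 in FRI;FLC apices of day 21. The 12 primordium groups took the lowest places, and the highest of them was FRI;FLC leaves 1/2 at 4.96 ± 0.66. A gap of 2.23 separated that group from the mimic apices at 7.19 ± 0.89, and a gap of 4.34 separated the mimic from FRI;flc-3 apices of day 4 at 11.54 ± 0.19. The arrays were without overlap in 6 of the 52 neighbouring pairs, of which 5 were next to the mimic or among the apices of days 4 and 6 and 1 was below the apices of day 21. From the FRI;FLC apices of day 6 upwards, all other neighbours overlapped. AT2G31790 ran from 7.49 ± 0.15 in FRI;FLC primordia of leaf 11 to 11.20 ± 0.14 in FRI;FLC apices of day 21, with 3 of 52 neighbouring pairs without overlap. Its mimic apices, at 8.17 ± 0.15, took place 7 from the bottom, among the primordia. For AOP3 0 of 52 neighbouring pairs were without overlap and the largest gap was 0.0854. Its lowest mean was that of the mimic apices (2.34 ± 0.13) and its highest that of FRI;flc-3 cauline leaf 11 in experiment 1 (3.17 ± 0.18).

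**Figure D1:**
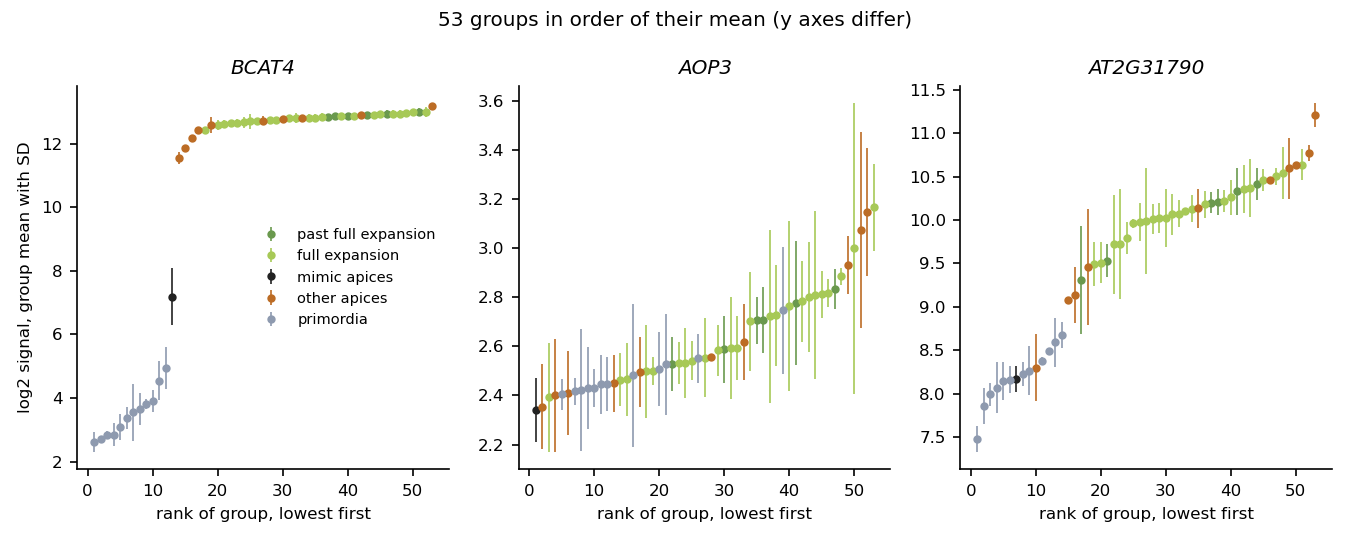
Group means with SD (log2 signal, y axis) against the rank of each of the 53 groups (x axis, lowest first), for BCAT4, AOP3 and AT2G31790, coloured by organ. For BCAT4 the primordia lie below 5.0, the mimic apices stand alone at 7.19 and all other groups lie above 11.5, whereas AOP3 and AT2G31790 rise without such steps.

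The largest difference of BCAT4 was that between expanded leaves and primordia. Expanded leaves were set against primordia of the same positions in experiment 1, for FRI;flc-3 over leaves 1/2 to 9 and for FRI;FLC over leaves 1/2 to 11. The expanded leaves came from older plants, for leaves 1/2 at day 14 against day 6. Stage and plant age can therefore not be told apart here. In FRI;flc-3 leaf 9, expanded leaves had BCAT4 at 12.44, 12.90 and 12.75, against 2.79, 2.27 and 2.83 in primordia. In FRI;FLC leaf 9 the values were 12.68, 12.88 and 12.93 in expanded leaves, against 4.46, 2.66 and 3.55 in primordia. Every expanded array lay far above every primordium array, at this and all other positions. The mean difference was 9.41 ± 0.12 in the mutants (SE, 682-fold on this scale, limma adjusted p = 7.75e-55) and 9.00 ± 0.11 in plants with FLC (514-fold, adjusted p = 4.79e-56). By position it ran between 7.66 at leaves 1/2 of FRI;FLC and 10.12 at leaf 11 of FRI;flc-3, where the expanded organ was cauline. The primordium values lie low on the scale, so the size of the fold is uncertain.

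AT2G31790 was also higher in expanded leaves than in primordia, by less. In FRI;flc-3 leaf 5 it was 10.44, 10.61 and 10.45 in expanded leaves, against 8.33, 8.14 and 8.02 in primordia, the largest step of any position at 2.33 ± 0.20. In FRI;FLC leaf 5 it was 9.61, 9.97 and 9.81 in expanded leaves, against 8.52, 8.47 and 8.49 in primordia. The stages did not overlap at any position of either genotype. Averaged over positions, it was higher by 1.93 ± 0.09 in the mutants (3.80-fold, limma adjusted p = 2.18e-27) and by 1.85 ± 0.08 in plants with FLC (3.59-fold, adjusted p = 1.81e-28). AOP3 was higher by 0.22 ± 0.07 in the mutants (adjusted p = 0.00227, but 0.11 and adjusted p = 0.227 without replicate 1), and its difference in FRI;FLC was 0.08 ± 0.06 (adjusted p = 0.25, 95% interval -0.05 to 0.20). That of FRI;FLC was larger and called once each array's trend of signal on gene length was removed. These calls stand against a background in which 83.3% of all probe sets were called between the stages in the mutants and 84.6% in plants with FLC. A higher signal per unit of RNA can come from more cells of a type or from more RNA per cell, and the 2 cannot be told apart in whole organs. HTR12 moved the other way, with differences of -5.47 in the mutants and -5.33 in plants with FLC. The beta-glucosidase gene PYK10 had -3.97 in the mutants and -5.43 in plants with FLC. It was listed as a root marker, but it was at 10.94 to 11.90 in apices outside the mimic. Its signal therefore did not mark root tissue alone here. The part of HTR12 and PYK10 in the result was not tested.

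The step of BCAT4 with expansion was larger in FRI;flc-3 than in FRI;FLC by 0.60 ± 0.17 over leaves 1/2 to 9 (limma adjusted p = 0.0128, 14.7% of probe sets called). The difference was not called without replicate 2 (0.48, adjusted p = 0.155) or without replicate 3 (0.62, adjusted p = 0.108). The same difference was 0.11 ± 0.13 for AT2G31790 and 0.15 ± 0.10 for AOP3, neither called. The genotypes differed in BCAT4 mainly in primordia (-0.71, against -0.12 in expanded leaves of experiment 1), where its signals are low, so the size of this difference is uncertain too.

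Apices with the miR156 mimic had lower signals of all 3 genes than FRI;FLC apices of the same day. BCAT4 was 7.39, 7.96 and 6.22 in the mimic, against 12.46 and 12.39 in FRI;FLC. The mimic values were low on every array and lay below those of all other apices of the series, of which the lowest was 11.39. The difference was -5.23 ± 0.25 (a 37.6-fold lower signal, limma adjusted p = 6.23e-15). This SE rests on 1 spread shared by all apex groups. The mimic arrays themselves had an SD of 0.886, so the SE and the p value are likely too small. AT2G31790 was 8.03, 8.16 and 8.32 in the mimic, against 8.99 and 9.93 in FRI;FLC. The groups did not overlap, although the FRI;FLC arrays were nearly 1 unit apart, and the difference was -1.29 ± 0.24 (2.44-fold lower, adjusted p = 0.000196). Without FRI;FLC replicate 1 it was -1.76 and without FRI;FLC replicate 2 it was -0.82, both called. FRI;flc-3 apices of day 4, at 8.16, 8.74 and 8.01, overlapped the mimic values of this gene.

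AOP3 was 2.25, 2.49 and 2.28 in the mimic, against 3.36 and 2.79 in FRI;FLC. The mimic values were the lower ones, and the difference of -0.74 ± 0.19 was called (limma adjusted p = 0.00416), but it rested on the high FRI;FLC array. Without FRI;FLC replicate 1 it was -0.45 (adjusted p = 0.245), without replicate 1 of both lines -0.41 (adjusted p = 0.50), and against FRI;FLC apices of days 4 and 9 together -0.37 (adjusted p = 0.0704). In this comparison 31.9% of all probe sets were called, 14.2% as lower, and 20.3% were lower without overlap of the arrays. The number of calls over all probe sets was 6164, and 1547 without FRI;FLC replicate 1. In a fit of only these 5 arrays, BCAT4 was still called and the other 2 genes were not (adjusted p = 0.0972 for AT2G31790 and 0.133 for AOP3).

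Marker genes also moved in the mimic apices. Both measured photosynthesis genes of 6 listed were higher, RCA at 12.38 to 12.50 in the mimic against 11.06 to 11.74 in FRI;FLC, and SBPASE by 1.03 ± 0.20. FRI;FLC apices of day 9 had RCA at 12.33 to 12.46, which overlapped the mimic. CLV3, the 1 measured of 6 meristem markers, was 2.61, 3.07 and 2.86 in the mimic, against 4.86 and 4.43 in FRI;FLC. Over all days, FRI;FLC apices had CLV3 at 2.10 to 4.86, a range that held the mimic values. Of the 2 measured root markers of 5 listed, PYK10 was 9.13 to 9.29 in the mimic against 11.79 and 11.89 in FRI;FLC, and AT5G48940 did not pass the test (-0.03 ± 0.21). HTR12 was not called (-0.16 ± 0.17). Of the 2 measured senescence markers, WRKY53 was 7.49 to 8.67 in the mimic, against 5.35 to 7.39 in FRI;FLC apices of all days. It was 5.15 to 7.69 in FRI;flc-3 apices, which overlapped the mimic. SAG29 was 1.66 to 1.86 in the mimic, within the 1.48 to 2.85 of FRI;FLC apices of all days. SBPASE was not called without FRI;FLC replicate 1 (0.48, adjusted p = 0.137). The part of tissue composition in the differences of the 3 genes was not tested. The trend of signal on gene length differed as well, at 0.02 to 0.70 log2 units per log10 bases in the mimic, against -1.38 and 0.05 in FRI;FLC. With that trend removed from each array, the differences were -5.32 for BCAT4, -1.29 for AT2G31790 and -0.82 for AOP3, all called.

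**Figure D2:**
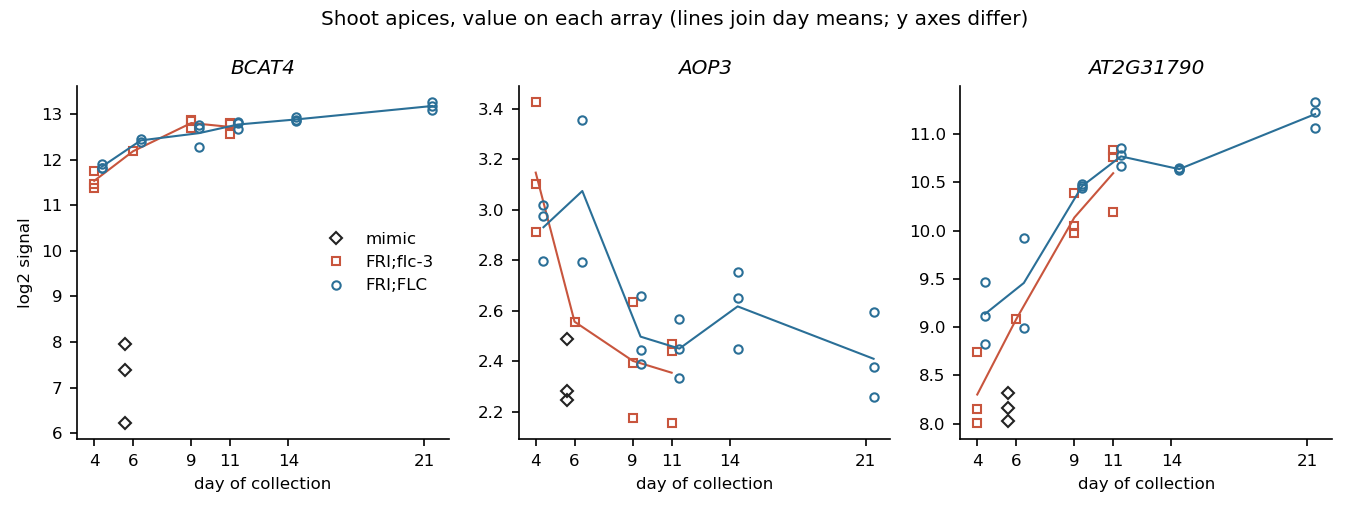
Log2 signal on each apex array (y axis) against day of collection (x axis) for the mimic line, FRI;flc-3 and FRI;FLC, with lines through the means of the last 2 genotypes. The mimic arrays of BCAT4 (6.22 to 7.96) lie below all other apices, AT2G31790 and BCAT4 are higher at later days, and AOP3 is lower after day 6 in FRI;FLC.

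With plant age, BCAT4 and AT2G31790 rose in apices while AOP3 fell. In FRI;FLC, BCAT4 was 13.27, 13.17 and 13.10 at day 21, against 11.82, 11.90 and 11.82 at day 4. The ages were far apart and the arrays of each close together, and the difference was 1.33 ± 0.23 (2.51-fold, limma adjusted p = 2.07e-05). AT2G31790 was 11.06, 11.22 and 11.33 at day 21, against 8.82, 9.47 and 9.11 at day 4, a difference of 2.07 ± 0.21 (4.19-fold, adjusted p = 5.91e-09). AOP3 was 2.38, 2.26 and 2.60 at day 21, against 2.80, 2.97 and 3.02 at day 4, without overlap and with a difference of -0.52 ± 0.17 (adjusted p = 0.012). That of AOP3 was -0.42 and not called without replicate 2 (adjusted p = 0.0952). In this comparison 50.1% of probe sets were called.

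Both genotypes were sampled from day 4 to day 11. BCAT4 was higher at day 11 than at day 4 by 1.18 ± 0.23 in FRI;flc-3 (limma adjusted p = 7.97e-05) and by 0.92 ± 0.23 in FRI;FLC (adjusted p = 0.00107). AT2G31790 was higher by 2.29 ± 0.21 in the mutants (adjusted p = 2.61e-09) and by 1.63 ± 0.21 in plants with FLC (adjusted p = 5.22e-07). AOP3 fell by 0.79 ± 0.17 on the log2 scale in the mutants (adjusted p = 0.000268), and its difference in plants with FLC was -0.48 ± 0.17 (adjusted p = 0.0161). The AOP3 call in plants with FLC was lost without replicate 1 (-0.55, adjusted p = 0.0508) and without replicate 3 (-0.38, adjusted p = 0.121). These comparisons had 60.0% of probe sets called in the mutants, against 60.4% in plants with FLC. None of the 3 genes passed the test of the difference between genotypes in this change, which called 0.476% of probe sets. That difference was 0.66 ± 0.30 for AT2G31790 (adjusted p = 0.432, 95% interval 0.05 to 1.27), 0.26 ± 0.32 for BCAT4 and -0.31 ± 0.24 for AOP3.

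Among consecutive days, AT2G31790 rose between day 6 and day 9, and no other step of it passed the test. Day 9 gave 9.97, 10.39 and 10.04, against 9.08 on the 1 array of day 6, in FRI;flc-3 (1.05 ± 0.30, limma adjusted p = 0.00723, 37.2% of probe sets called). It gave 10.46, 10.48 and 10.44, against 8.99 and 9.93 at day 6, in FRI;FLC (1.00 ± 0.24, adjusted p = 0.00246, 31.8% called). BCAT4 passed in no single step of either genotype, with 0.58 ± 0.25 from day 4 to day 6 in plants with FLC (adjusted p = 0.113). The fit shares 1 spread over all apex groups, and for BCAT4 the mimic had the largest SD, at 0.886. Plants with FLC had SDs of 0.049 at day 4 and 0.045 at day 6. The mimic thus widens the errors and intervals of BCAT4 in apices, and the missing calls do not show that BCAT4 was unchanged. AOP3 fell between day 6 and day 9 in plants with FLC (-0.58 ± 0.19, adjusted p = 0.021). Without replicate 1 the steps of plants with FLC were not called (0.53 for AT2G31790, adjusted p = 0.486, and -0.27 for AOP3, adjusted p = 0.771). The test assumes that the lone mutant array of day 6 varies like the other groups.

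Apices of different age differed in other respects too. A replicate held 120 apices at days 4 and 6, 60 at day 9, 30 at days 11 and 14 and 24 at day 21. In FRI;FLC, CLV3 was lower at day 21 than at day 4 (-2.01 ± 0.25), as was HTR12 (-1.56 ± 0.15). The trend of signal on gene length also differed by day, at 0.76 to 0.95 log2 units per log10 bases at day 11 against -1.08 to -0.61 at day 4 in plants with FLC. Removal of that trend from each array left the age calls of the 3 genes in apices the same, with 1.27 for BCAT4 and 2.07 for AT2G31790 at day 21 over day 4.

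Between the genotypes, apices of days 4, 9 and 11 showed no called difference in the 3 genes, where 1.12% of all probe sets were called. The difference, FRI;flc-3 minus FRI;FLC, was -0.05 ± 0.13 for BCAT4 (95% interval -0.32 to 0.22), 0.01 ± 0.10 for AOP3 (-0.19 to 0.21) and -0.44 ± 0.12 for AT2G31790 (-0.69 to -0.19, limma adjusted p = 0.0761). With the replicate number as a block the AT2G31790 difference of -0.44 was called (adjusted p = 0.0321), as was that of -0.52 without replicate 2 (adjusted p = 0.0390). AT2G31790 was 8.16, 8.74 and 8.01 in the mutants at day 4, against 8.82, 9.47 and 9.11 in plants with FLC. The mutant arrays were all below those of plants with FLC, and at that day alone the difference of -0.83 ± 0.21 was called (adjusted p = 0.0367, 1.88% of probe sets called). At day 9 it was -0.33 ± 0.21 and at day 11 -0.17 ± 0.21, neither called. The call at day 4 was lost without replicate 1 (-0.92, adjusted p = 0.11) and without replicate 3 (-0.70, adjusted p = 0.251).

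In primordia of leaves 1/2 to 9, BCAT4 was lower in FRI;flc-3. Leaf 5 gave 3.26, 3.08 and 3.74 in the mutants, against 4.06, 4.37 and 5.23 in FRI;FLC. Leaves 1/2 gave 4.15, 3.14 and 3.69 in the mutants, against 4.20, 5.41 and 5.26 in plants with FLC. At both positions every mutant array was below every array of plants with FLC, at leaves 1/2 only narrowly (4.15 against 4.20). The arrays overlapped at leaf 9. The share of all probe sets without overlap at these positions was not counted. Over the 5 positions BCAT4 averaged 3.28 in mutant primordia, against 4.00 in plants with FLC, with a difference of -0.71 ± 0.14 (limma adjusted p = 0.000442). Both means are low signals, with 24.4% of all array values below that of the mutants and 29.4% below that of plants with FLC, so the size of the difference is uncertain. At single positions it was called at leaf 5 (-1.19 ± 0.32, adjusted p = 0.0345, 2.26% of probe sets called), and leaf 3 gave 0.09 ± 0.32. Leaf 5, with means of 3.36 in the mutants and 4.55 in plants with FLC, did not have the largest difference. The means were 3.66 and 4.96 at leaves 1/2, and 2.63 and 3.56 at leaf 9. The call at leaf 5 was lost without replicate 2 (-1.14, adjusted p = 0.169) and without replicate 3 (-1.05, adjusted p = 0.375). AT2G31790 (0.03 ± 0.07) and AOP3 (-0.10 ± 0.06) were not called, in a comparison that called 11.7% of probe sets, 6.34% as lower. PYK10 differed by -2.23 in the same primordia.

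At leaf 11 the genotypes differed in AT2G31790 instead. Primordia of leaf 11, future cauline leaves in the mutants, gave 8.66, 8.84 and 8.54 in FRI;flc-3, against 7.66, 7.40 and 7.40 in FRI;FLC. All mutant arrays were above those of plants with FLC, and the difference was 1.19 ± 0.16 (2.28-fold, limma adjusted p = 2.65e-07). BCAT4 (0.13 ± 0.32) and AOP3 (0.02 ± 0.14) were not called. The comparison called 31.9% of probe sets, 17.3% as higher, and 23.7% were higher without overlap. In these primordia PYK10 was lower in the mutants (-6.84), and HTR12 had -0.37 ± 0.14. A test chosen after the values were seen set the genotype difference of leaf 11 against that of leaf 9. It called 8.17% of probe sets and gave 0.82 ± 0.23 for AT2G31790 (adjusted p = 0.0196), a call that was lost when any 1 replicate was left out (0.74 to 0.93), and 1.05 ± 0.46 for BCAT4 (adjusted p = 0.146).

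Between positions, and so between ages, BCAT4 was lower in primordia of leaf 9 (day 16) than in those of leaves 1/2 (day 6). In FRI;flc-3 it was 2.79, 2.27 and 2.83 at leaf 9, against 4.15, 3.14 and 3.69 at leaves 1/2, without overlap (-1.03 ± 0.32, limma adjusted p = 0.0137). In FRI;FLC it was 4.46, 2.66 and 3.55 at leaf 9, against 4.20, 5.41 and 5.26 at leaves 1/2. Here 1 array of leaf 9 lay within the range of leaves 1/2, and the difference was -1.40 ± 0.32 (adjusted p = 0.000712). The BCAT4 call was lost without replicate 3 in the mutants (-1.11, adjusted p = 0.0513) and without replicate 2 in plants with FLC (-0.73, adjusted p = 0.151), while without replicate 1 that of plants with FLC was -2.23 and called. The positions between did not form an even series, with means of 3.91 at leaf 3 against 3.66 at leaves 1/2 in the mutants, and of 4.55 at leaf 5 against 3.82 at leaf 3 in plants with FLC. AT2G31790 was called in plants with FLC, at 7.95, 7.63 and 8.00 at leaf 9 against 8.49, 8.37 and 8.91 at leaves 1/2 (-0.73 ± 0.16, adjusted p = 0.000444), while the mutants gave -0.15 ± 0.16. The test of the difference between genotypes called none of the 3 genes (0.58 ± 0.23 for AT2G31790, adjusted p = 0.245). AOP3 was called in neither genotype. Of all probe sets, 29.0% were called between these positions in the mutants, 34.5% in plants with FLC and 2.79% for the difference between genotypes.

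In fully expanded leaves of leaves 1/2 to 9, 1 difference between the genotypes was called, that of BCAT4 in experiment 1. In experiment 2, where both genotypes were harvested on the same days at leaves 1/2 to 7, FRI;flc-3 minus FRI;FLC was 0.04 ± 0.05 for BCAT4, 0.11 ± 0.12 for AT2G31790 and 0.09 ± 0.09 for AOP3. None was called, against 6.16% of probe sets, and the 95% interval of BCAT4 was -0.05 to 0.14. In experiment 1, where mutant leaves above the first pair were harvested on earlier days, BCAT4 differed by -0.12 ± 0.04 over leaves 1/2 to 9 (limma adjusted p = 0.0256, 27.5% of probe sets called). That call was lost without any 1 of the replicates (-0.15 to -0.08, adjusted p 0.0615 to 0.270). AT2G31790 (0.15 ± 0.10) and AOP3 (0.04 ± 0.08) were not called. At single positions AT2G31790 was called neither at leaf 5 of experiment 1 (0.70 ± 0.23, adjusted p = 0.0629) nor at leaf 9 of experiment 2 (0.59 ± 0.23, adjusted p = 0.0844). At leaf 9 of experiment 2 BCAT4 differed by 0.26 ± 0.09 (adjusted p = 0.0534).

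**Figure D3:**
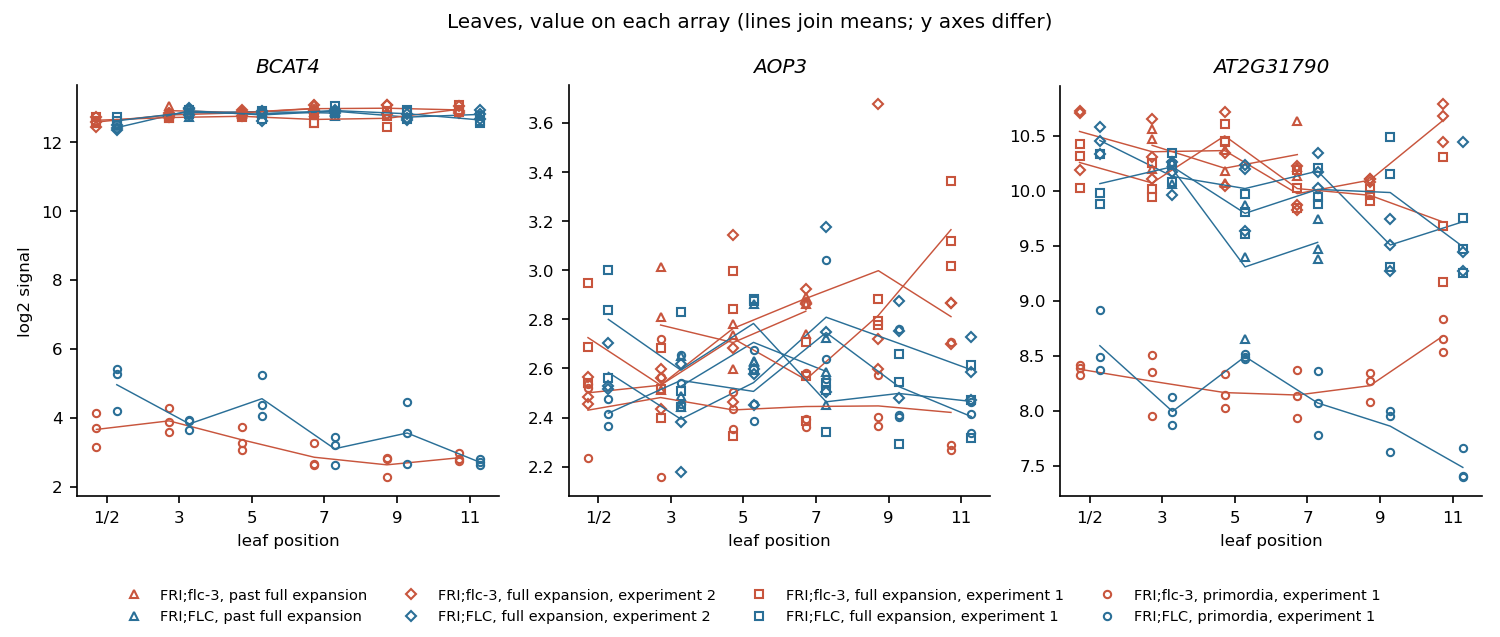
Log2 signal on each primordium and leaf array (y axis) against leaf position (x axis) for FRI;flc-3 and FRI;FLC, with lines through the means of each stage and experiment. BCAT4 lies between 2.27 and 5.41 in primordia and above 12 in leaves, AT2G31790 is lower in primordia throughout, and AOP3 stays between 2.16 and 3.68.

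Expanded leaves of the cauline and rosette types were compared at leaf 11. In experiment 1 the cauline leaf was harvested at day 30 and the rosette leaf at day 34, in experiment 2 at days 32 and 33. AOP3 was 3.12, 3.02 and 3.36 in the FRI;flc-3 cauline leaf of experiment 1, against 2.47, 2.31 and 2.61 in the FRI;FLC rosette leaf. In experiment 2 it was 2.87, 2.70 and 2.87 in the cauline leaf, against 2.47, 2.73 and 2.58 in the rosette leaf. The groups were apart in experiment 1 (0.70 ± 0.17, limma adjusted p = 0.000624, 47.7% of probe sets called) and overlapped in experiment 2 (0.22, not called), and the mean over both was 0.46 ± 0.12 (adjusted p = 0.00158). AT2G31790 showed its difference in the other experiment. It was 10.68, 10.44 and 10.79 in the cauline leaf of experiment 2, against 9.45, 9.27 and 10.44 in the rosette leaf (0.92 ± 0.23, adjusted p = 0.00171, 29.4% of probe sets called). In experiment 1 it was 9.17, 10.31 and 9.68 in the cauline leaf, against 9.75, 9.47 and 9.26 in the rosette leaf, which overlapped (0.23, not called). Its mean over both experiments was 0.57 ± 0.17 (adjusted p = 0.00401), and 0.36 without replicate 2 (adjusted p = 0.214). The call in experiment 2 was lost without replicate 1 (0.76, adjusted p = 0.0826) and without replicate 2 (0.79, adjusted p = 0.0608).

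BCAT4 was 12.93, 13.08 and 12.87 in the cauline leaf of experiment 1, against 12.78, 12.55 and 12.62 in the rosette leaf. In experiment 2 its means were closer, at 12.94 ± 0.10 (SD) in the cauline leaf and 12.81 ± 0.13 in the rosette leaf. Over both experiments the difference was 0.22 ± 0.07 (SE, limma adjusted p = 0.00527). It was not called without replicate 2 (0.14, adjusted p = 0.210) or without replicate 3 (0.21, adjusted p = 0.0545). These calls come from a comparison that called 38.3% of probe sets, 19.7% as higher. The difference between experiments (2 minus 1) was tested after the values were seen, and it called 40.8% of probe sets and none of the 3 genes. It was -0.48 for AOP3 (adjusted p = 0.0998), 0.69 for AT2G31790 (adjusted p = 0.0846) and -0.18 for BCAT4 (adjusted p = 0.267). The senescence marker SAG29 was higher in the cauline leaf by 4.22 ± 0.56, while WRKY53 (-2.04 ± 0.40) and HTR12 (-1.14 ± 0.31) were lower, HTR12 without a call when replicate 2 was left out (-0.88, adjusted p = 0.0855). Their part in the result was not tested. In experiment 1 the trend on gene length was -1.52 to -0.51 in the cauline leaf, against -0.53 to 0.92 in the rosette leaf. With that trend removed from each array, the means over both experiments were 0.48 for AOP3, 0.57 for AT2G31790 and 0.25 for BCAT4, all called.

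Between leaf positions at full expansion, and so between ages, BCAT4 rose in both genotypes and AT2G31790 fell in plants with functional FLC. BCAT4 was higher at leaf 9 than at leaves 1/2 by 0.23 ± 0.07 in FRI;flc-3 (limma adjusted p = 0.00323) and by 0.26 ± 0.07 in FRI;FLC (adjusted p = 0.00102), as means over both experiments. AT2G31790 was lower at leaf 9 in plants with FLC (-0.52 ± 0.17, adjusted p = 0.0085), and the mutants gave -0.37 ± 0.17 (adjusted p = 0.0631). AOP3 was called in the mutants at 0.29 ± 0.12 (adjusted p = 0.0421), where 1 array of leaf 9, at 3.68, stood above the other 2 of its group at 2.72 and 2.60. It gave -0.09 ± 0.12 in plants with FLC. All but the BCAT4 call in plants with FLC were lost without 1 replicate. For BCAT4 the mutants gave 0.18 without replicate 2 (adjusted p = 0.0995). For AOP3 they gave 0.16 without replicate 1 (adjusted p = 0.374) and 0.34 without replicate 2 (adjusted p = 0.104). For AT2G31790 plants with FLC gave -0.40 without replicate 1 (adjusted p = 0.148) and -0.39 without replicate 3 (adjusted p = 0.0915). Of all probe sets, 43.5% were called in the mutants and 43.3% in plants with FLC. The difference between genotypes called 6.52% of probe sets and none of the 3 genes.

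The experiments were then taken singly, after the values were seen. In experiment 2 AT2G31790 of FRI;FLC was 9.28, 9.74 and 9.51 at leaf 9, against 10.58, 10.34 and 10.46 at leaves 1/2, without overlap (-0.95 ± 0.23, limma adjusted p = 0.000537, 52.3% of probe sets called). In experiment 1 it was 10.15, 10.49 and 9.31 at leaf 9, against 10.33, 9.98 and 9.88 at leaves 1/2, with overlap (-0.08 ± 0.23, not called). The difference between experiments (2 minus 1) was called at -0.87 ± 0.33 (adjusted p = 0.0325, 37.7% of probe sets called), but not without replicate 1 (-0.74, adjusted p = 0.212) or without replicate 2 (-0.75, adjusted p = 0.185). In experiment 2 the trend of signal on gene length was -1.41 to -0.04 at leaf 9, against 0.78 to 0.95 at leaves 1/2. In experiment 1 it was -0.55 to 0.97 at leaf 9, against -0.59 to 0.19 at leaves 1/2. With that trend removed, the calls of the means over both experiments stayed the same. BCAT4 in FRI;flc-3 was higher at leaf 9 by 0.40 ± 0.09 in experiment 2 (adjusted p = 0.000308, 44.0% of probe sets called) and by 0.06 ± 0.09 in experiment 1 (not called). That difference between experiments was 0.34 ± 0.13 and not called (adjusted p = 0.0734). BCAT4 in plants with FLC gave 0.31 ± 0.09 in experiment 2 (adjusted p = 0.00459, and 0.0596 without replicate 3) and 0.21 ± 0.09 in experiment 1 (not called). AOP3 in the mutants gave 0.50 ± 0.17 in experiment 2 (adjusted p = 0.0143, but 0.15 and 0.570 without replicate 1) and 0.09 ± 0.17 in experiment 1 (not called).

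Past full expansion, AT2G31790 differed between the genotypes. In leaf 5 it was 10.18, 10.37 and 10.07 in FRI;flc-3, against 8.65, 9.40 and 9.88 in FRI;FLC. In leaf 7 it was 10.13, 10.22 and 10.64 in the mutants, against 9.48, 9.38 and 9.74 in plants with FLC, and in leaf 3 it was 10.20, 10.57 and 10.47 in the mutants, against 10.27, 10.06 and 10.27 in plants with FLC. The mutants were higher without overlap in leaves 5 and 7, and the arrays overlapped in leaf 3. The mean difference was 0.64 ± 0.14 (1.55-fold, limma adjusted p = 0.000129), with 31.7% of probe sets called and 14.4% as higher. BCAT4 (0.06 ± 0.05) and AOP3 (0.16 ± 0.10) were not called. The trend of signal on gene length was -1.16 to -0.13 in mutant leaf 5, against -1.27 to -0.79 in plants with FLC. In leaf 7 it was -0.73 to 0.16 in the mutants, against -0.75 to -0.41 in plants with FLC. With that trend removed, the calls of the 3 genes stayed the same. SAG29, 1 of 2 measured senescence markers of 6 listed, was 8.46 to 11.11 in the same mutant leaves, against 2.66 to 10.61 in leaves of plants with FLC, and WRKY53 differed by -0.81 ± 0.32 (-0.42 and not called without replicate 1). Their part in the result was not tested.

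Compared with the same positions at full expansion, AT2G31790 was lower past full expansion in leaves 5 and 7 of FRI;FLC. Leaf 3 gave 10.27, 10.06 and 10.27 past full expansion, against 10.17, 9.96 and 10.26 at full expansion, close together and slightly higher past full expansion (0.07 ± 0.23). Leaf 5 gave 8.65, 9.40 and 9.88 past full expansion, against 10.23, 10.20 and 9.64 at full expansion, with overlap. Leaf 7 gave 9.48, 9.38 and 9.74 past full expansion, against 10.17, 10.34 and 10.03 at full expansion, without overlap. Over leaves 3, 5 and 7 the difference was -0.43 ± 0.14 in plants with FLC (limma adjusted p = 0.00908, 34.7% of probe sets called). It was not called without replicate 1 (-0.28, adjusted p = 0.246) or without replicate 2 (-0.37, adjusted p = 0.134). The trend of signal on gene length differed as well. Past full expansion it was 0.09 to 0.66 in leaf 3, -1.27 to -0.79 in leaf 5 and -0.75 to -0.41 in leaf 7. At full expansion it was -0.50 to 0.41 in leaf 3, -0.49 to 0.05 in leaf 5 and -0.56 to -0.12 in leaf 7. With that trend removed from each array, the call over the 3 leaves stayed the same. The mutants' difference was 0.08 ± 0.14 (adjusted p = 0.702, 30.5% called). The difference between the genotypes in this change, tested after the values were seen, was 0.52 ± 0.19 and not called (adjusted p = 0.0914, 7.00% of probe sets called). BCAT4 and AOP3 were called in neither genotype, with BCAT4 at 0.05 ± 0.05 in the mutants and -0.01 ± 0.05 in plants with FLC.

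None of the 3 genes passed the test between leaves 3, 5 and 7 past full expansion and leaf 9 collected with them (17.1% of probe sets called), with 0.20 ± 0.14 for AT2G31790. The same held for experiment 2 against experiment 1 in FRI;FLC expanded leaves (34.3% called), with -0.06 ± 0.04 for BCAT4, 0.04 ± 0.10 for AT2G31790 and -0.02 ± 0.08 for AOP3. Over all 25 comparisons, 33 of 75 differences of the 3 genes were called, 14 for BCAT4, 12 for AT2G31790 and 7 for AOP3. That is 44% of them, beside a mean of 32.4% of all probe sets called per comparison. In 8 comparisons limma called none of the 3 genes. An unadjusted p under 0.05 was found there for AT2G31790 in 3 comparisons, all between the genotypes in apices or primordia, for AOP3 in 1, and for no gene in the other 4.

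**Figure D4:**
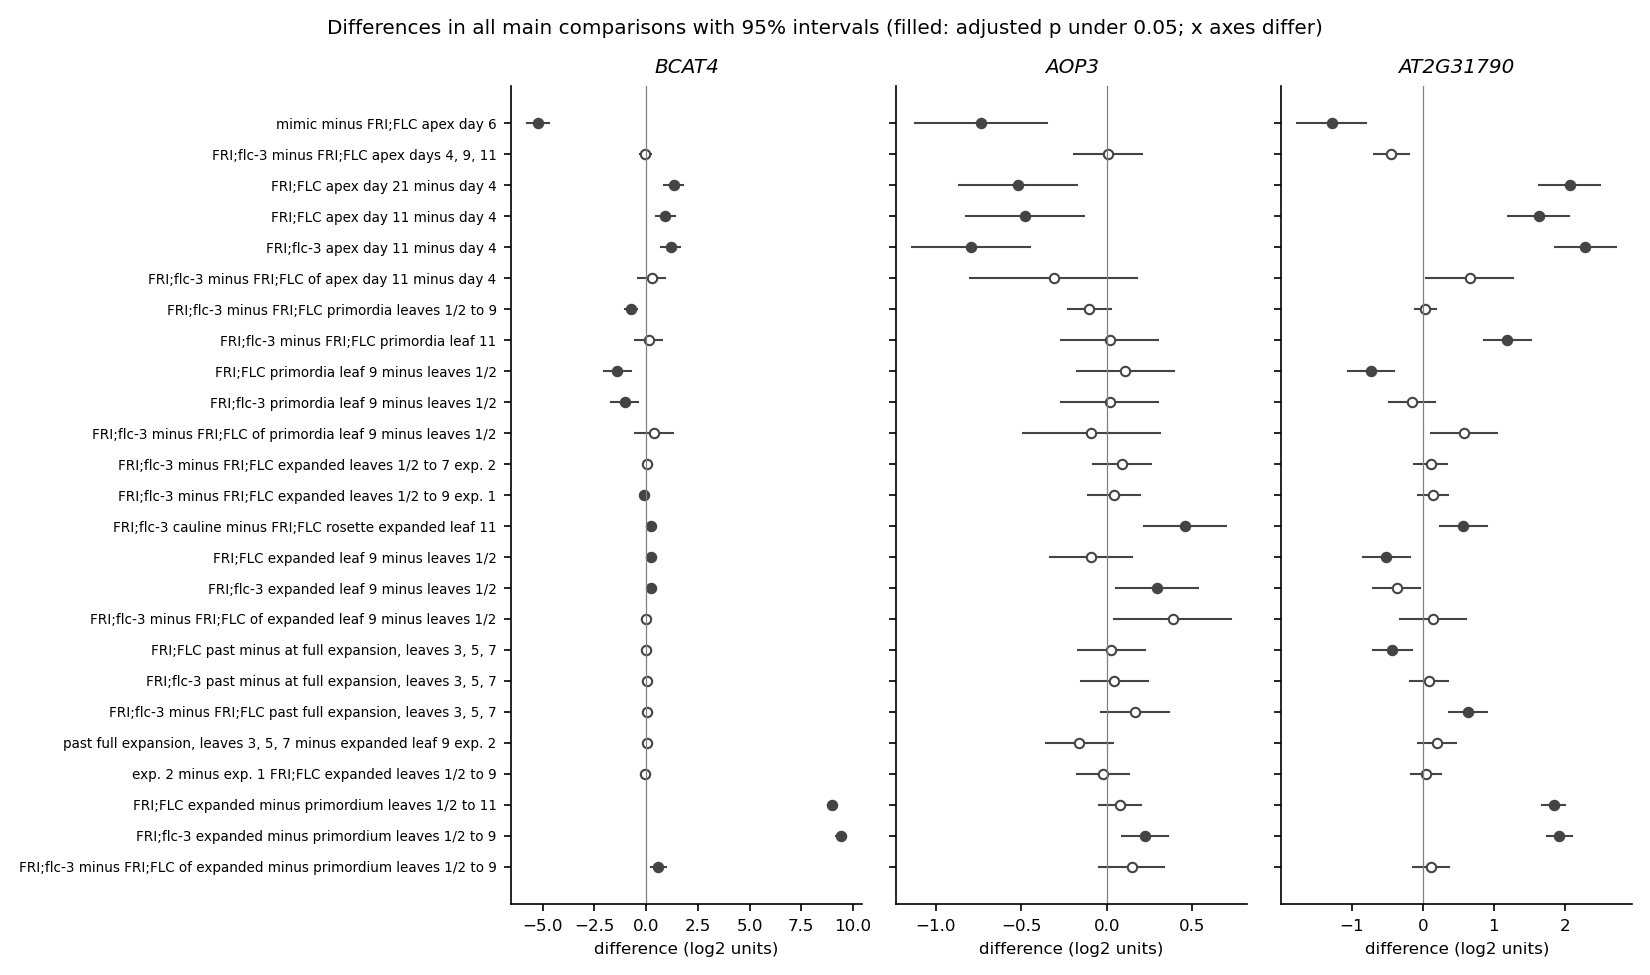
Difference of each of the 25 comparisons (rows) in log2 units (x axis) with its 95% interval for BCAT4, AOP3 and AT2G31790, filled where the adjusted p is under 0.05. BCAT4 has its extremes at -5.23 in the mimic and 9.41 with expansion in FRI;flc-3, AT2G31790 reaches 2.29 with age in FRI;flc-3 apices, and every AOP3 difference lies within 1 unit of 0.

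Across the 53 group means, BCAT4 and AT2G31790 had a Pearson correlation of 0.871. Within organs it was 0.735 over 11 apex groups, 0.439 over 12 primordium groups, -0.106 over 24 groups of expanded leaves and 0.417 over 6 groups past full expansion. The value over all groups thus combines differences between organs with differences within them, which were most alike in apices. AOP3 correlated with BCAT4 at 0.385 and with AT2G31790 at 0.157. These are descriptions over groups that share organs, genotypes and growth experiments.

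The genes with group means most like those of BCAT4 were UBC29 (Pearson r 0.980 over 53 groups), AT1G08940 (0.976), AT3G45160 (0.975), AT5G45350 (0.972) and AT5G04080 (0.970). For AT2G31790 the most alike was UGT74B1, the glucosyltransferase gene of the glucosinolate core structure, at 0.934, followed by PMEPCRF (0.916), AT2G39850 (0.913), AT1G67870 (0.895) and AT5G05790 (0.894). For AOP3 the highest values were 0.778 for AT3G14670 and AT3G43110, 0.771 for AT2G32360, 0.730 for AT2G23110 and 0.728 for AT3G17140. They are the highest of 10780 correlations for each gene.

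Of 79 listed genes of glucosinolate synthesis, regulation, transport and breakdown, 13 had a named probe set, so 10 besides the 3 genes could be read. They were 2 further genes of the core structure (GSTU20, a glutathione transferase, and UGT74B1), 2 of the side chain list (AOP1 and AT2G25450), 5 of regulation and transport (MYC3 and MYC4, bHLH transcription factors of jasmonate responses, the transporters GTR1 and GTR2, and AT1G04770) and BGLU28, a beta-glucosidase of breakdown. In the mimic apices 1 of the 10 was higher, 3 were lower and 6 did not pass the test, beside 31.9% of all probe sets called, with a median difference of 0.09 against 0.04 over all probe sets. The lower ones were AT2G25450 (-2.48 ± 0.15), UGT74B1 (-0.72 ± 0.18) and GSTU20 (-0.67 ± 0.11), and MYC3 was higher (2.37 ± 0.50). MYC3 was 8.15, 6.98 and 8.27 in the mimic, against 4.15 and 6.70 in FRI;FLC, and without FRI;FLC replicate 1 it was 1.10 and not called (adjusted p = 0.184). UGT74B1 was not called without FRI;FLC replicate 2 (-0.47, adjusted p = 0.0727), nor GSTU20 without replicate 1 of both lines (-0.53, adjusted p = 0.0835). AT2G25450 was thus lower with BCAT4 in the mimic, at a mean of 7.65 in the mimic against 10.13 in FRI;FLC.

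With apex age, 8 of the 10 were higher and 2 lower at day 21 than at day 4 in FRI;FLC, beside 25.2% of all probe sets higher and 25.0% lower, with a median of 1.78 against -0.02 over all probe sets. GTR2 was higher by 3.83 ± 0.26, MYC4 by 2.74 ± 0.40, AT1G04770 by 2.31 ± 0.34 and UGT74B1 by 1.94 ± 0.16, while AOP1 was lower (-1.07 ± 0.41), with overlap of the arrays. Without replicate 3 AOP1 was -0.42 and without replicate 2 it was -1.16, neither called (adjusted p = 0.468 and 0.0932), and without replicate 1 it was -1.64. From day 4 to day 11, 8 were higher and 0 lower in FRI;flc-3, and 9 higher and 0 lower in plants with FLC, beside 60.0% and 60.4% of all probe sets called. In apices by genotype limma called 0 of the 10, as for the 3 genes, and 1 of the 10 had an unadjusted p under 0.05.

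With leaf expansion, 8 of the 10 were higher and 2 lower in either genotype, with medians of 1.09 in both. That all 10 were called is near the share of all probe sets, 83.3% in the mutants and 84.6% in plants with FLC. Over all probe sets the median was 0.00 in FRI;flc-3 plants and -0.03 in plants with functional FLC. AT2G25450 had the largest difference after BCAT4, at 5.34 in the mutants and 4.93 in plants with FLC. MYC4 had 2.15 in the mutants and 2.27 in plants with FLC, and GTR1 had 2.01 in the mutants and 2.23 in plants with FLC. BGLU28 was lower (-2.74 in the mutants and -1.72 in plants with FLC), but its expanded leaves lay at 1.51 to 2.44, near the floor of the array, so these sizes are uncertain. AOP1 was lower as well (-0.33 in the mutants and -0.37 in plants with FLC). Without replicate 1 AOP1 was not called in either (-0.30 in the mutants and -0.19 in plants with FLC).

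In primordia of leaves 1/2 to 9, 1 of the 10 was higher in FRI;flc-3 (BGLU28, 1.01) and 2 were lower (AT2G25450, -0.51, and UGT74B1, -0.30), beside 11.7% of all probe sets called. Without replicate 3 neither of these 2 was called (-0.43 for AT2G25450 and -0.25 for UGT74B1). At leaf 11, 3 were higher and 3 lower, beside 31.9% of all probe sets called, with BGLU28 at 3.44 ± 0.23 and GTR1 at 1.04 ± 0.18. Between leaf 9 and leaves 1/2 of primordia, AT2G25450 had -3.46 in the mutants and -3.40 in FRI;FLC, the same direction as BCAT4. Past full expansion, 4 were higher in the mutants than in plants with FLC (GTR1 by 0.69, GTR2 by 0.44 and UGT74B1 and AT2G25450 by 0.37 each), 1 was lower (AOP1, -0.91) and 5 did not pass the test, beside 31.7% of all probe sets called. GTR2 and UGT74B1 were not called without replicate 1 (adjusted p = 0.0607 and 0.0834).

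**Figure D5:**
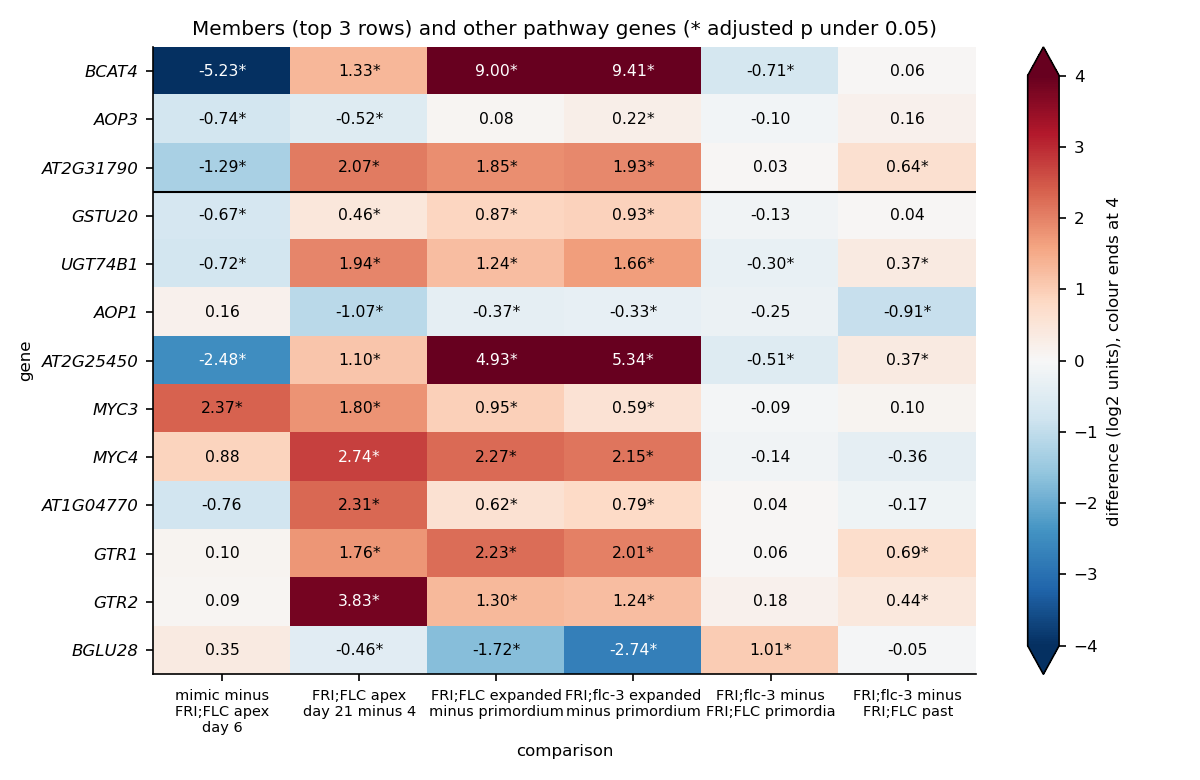
Log2 differences (colour and printed value, asterisk for an adjusted p under 0.05) of the 3 genes and the 10 other measured pathway genes (rows) in 6 comparisons (columns). BCAT4 and AT2G25450 share the direction of their called differences in the mimic (-5.23 and -2.48), with apex age (1.33 and 1.10) and with expansion in FRI;FLC (9.00 and 4.93). AT2G31790, GSTU20 and UGT74B1 were called in the same directions there.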

How the data were processed

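RNA of 156 pools of organs was hybridised to oligonucleotide arrays, 1 array per replicate. The authors deposited 1 log2 signal per probe set and array on a common scale. Per the submitters' processing notes, GCRMA and MAS5 were used. Of tool versions, genome build and probe filters, the sources used here give none. Probe sets were named from the platform annotation, with 10918 matched to 1 gene, 407 to several and 7999 not named here. The RefSeq gene table for TAIR10.1 was used for names, chromosomes, neighbours and the gene lengths of the length trend. Where a gene had several probe sets, the one with the highest mean was used.

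The values were used unscaled and without a pseudocount. Models with 1 coefficient per group were fitted to all 19324 probe sets with limma 3.58.1 in R 4.3.3, separately for apices, primordia, expanded leaves together with leaves past full expansion, and primordia together with expanded leaves of experiment 1. The tests were moderated (eBayes with trend) and two-sided, with Benjamini-Hochberg adjustment over all probe sets and an adjusted p under 0.05 for a call. A comparison spanning days, positions or experiments took the mean of its single differences. The number of arrays limits the precision, and the tests were tried on simulated data. Replicate numbers recur across groups. The deviations of same-numbered apex arrays correlated at a median of 0.08 (-0.69 to 0.44), against -0.04 for different numbers. The same-number median was -0.01 in primordia (-0.40 to 0.41) and 0.01 in leaves (-0.77 to 0.81). In primordia with expanded leaves of experiment 1 it was -0.002 (-0.57 to 0.75). With medians near 0 the numbers were not taken as pairs, although single pairs of groups correlated more strongly.

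The 3 genes, the pathway and marker lists and the comparisons were chosen with earlier results of these data known. The named genes are the 3 genes, up to 4 called genes of the pathway list with the largest differences and the 5 genes most alike for each. The genome of the files' build was not used here, so no sequences or coordinates are given. Other settings were quantile normalization, probe sets above the median, a prior without trend, a robust prior (statmod 1.5.0), a replicate block, a fit of only the groups compared, omission of each replicate, another control for the mimic and removal of the trend on gene length, the last added after the values were seen.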

Additional observations from a re-analysis of the deposited data

Results flagged for a closer look

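The rise of BCAT4 from primordium to expanded leaf differed between the genotypes by 0.60 ± 0.17 (limma adjusted p = 0.0128) over leaves 1/2 to 9, with the larger step in FRI;flc-3, at 9.41. It is singled out because the test of the difference itself passed. It rests mainly on low signals in primordia, where BCAT4 differed by -0.71 between the genotypes, and the call was lost when some single replicates were left out. The genotype difference of AT2G31790 in primordia was larger at leaf 11 than at leaf 9 by 0.82 ± 0.23 (limma adjusted p = 0.0196), in a comparison chosen after the values were seen. That call was lost when any 1 replicate was left out. The difference of AT2G31790 between leaf 9 and leaves 1/2 of expanded FRI;FLC leaves itself differed between the experiments by -0.87 ± 0.33 (experiment 2 minus experiment 1, limma adjusted p = 0.0325), in a test also chosen after the values were seen. This call too was lost when some single replicates were left out. In experiment 2 the trend of signal on gene length also differed between these leaves. No group held 4 or more arrays, so single arrays were not tested as outliers.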

How the results depend on the processing

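Of the 75 differences of the 3 genes, 33 were called, and 18 of these stayed called under every setting tried. Of the 42 not called, 39 stayed so, and 0 reversed while called. Quantile normalization, a prior without trend and a robust prior left all 75 on the same side of the threshold. With probe sets above the median alone, BCAT4 and AT2G31790 kept all 50 of theirs, and AOP3 was not among the probe sets tested. The replicate block, which takes same-numbered arrays as pairs, changed 1 call, that of AT2G31790 between the genotypes in apices (-0.44, adjusted p = 0.0321). A fit of only the groups compared, which leaves fewer arrays to estimate the spread, ended 6 calls. These were AOP3 in the mimic (-0.74, adjusted p = 0.133), AT2G31790 in the mimic (-1.29, 0.0972), BCAT4 between genotypes in expanded leaves of experiment 1 (-0.12, 0.0502), BCAT4 in the cauline leaf (0.22, 0.0514), AT2G31790 in the cauline leaf (0.57, 0.0831) and AOP3 between expanded leaves 9 and 1/2 of the mutants (0.29, 0.168). The same fit called AT2G31790 in that last comparison (-0.37, 0.0184). With days 4 and 9 as control, AOP3 in the mimic was -0.37 (0.0704). With the length trend removed, AOP3 rose with expansion in plants with FLC (0.17, 0.0117). The cause of these changes was not tested.

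Omission of 1 replicate changed the call of 15 differences, which then ranged as follows. BCAT4 gave -2.23 to -0.73 between primordia 9 and 1/2 in plants with FLC and -1.11 to -0.86 in the mutants. It gave -0.15 to -0.0816 between the genotypes in experiment 1, 0.14 to 0.31 in the cauline leaf, 0.18 to 0.27 between expanded leaves 9 and 1/2 in the mutants and 0.48 to 0.69 for the genotype difference in expansion. AOP3 gave -1.09 to -0.41 in the mimic, -0.57 to -0.42 between days 21 and 4, -0.55 to -0.38 between days 11 and 4 in plants with FLC, 0.16 to 0.38 between expanded leaves of the mutants and 0.11 to 0.32 for expansion in the mutants. AT2G31790 gave -0.52 to -0.32 between the genotypes in apices, 0.36 to 0.70 in the cauline leaf, -0.75 to -0.39 between expanded leaves 9 and 1/2 in plants with FLC and -0.64 to -0.28 past full expansion there.

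Counts of called probe sets moved by more than 1.5 times as well. In the mimic, 6164 became 588 in a fit of only these groups, 963 without replicate 1, 3426 without replicate 3, 1547 without FRI;FLC replicate 1 and 3702 with days 4 and 9 as control. Between the genotypes, apices had 216 calls (56 to 104 without replicates 3 or 1), primordia 2265 (1224 to 1322 without 1 or 3), primordia of leaf 11 6167 (4068 without 2), expanded leaves of experiment 1 5316 (2721 to 3028 without 3 or 1) and of experiment 2 1191 (1949 with only those groups, 443 to 663 without 1 replicate), and leaves past full expansion 6120 (3374 to 3798 without 2 or 1). Genotype differences gave 92 for apex age (55 with only those groups, 8 to 31 without 1 replicate), 539 for primordium position (242 to 271 without 1 or 3), 1259 for expanded position (578 without 1) and 2841 for expansion (1297 to 1485 without 1 replicate). The mutants' expanded leaves 9 and 1/2 had 8402 (5467 without 2), plants with FLC past full expansion 6698 (3757 without 2), leaves past full expansion against leaf 9 3299 (1655 to 1865 without 1 or 2) and the experiments 6626 (4250 without 3). With probe sets above the median, which tests fewer, all 25 counts were lower.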
